A study of Mus musculus with 9 samples.

Results

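*Mlec* encodes malectin, a lectin of the endoplasmic reticulum (ER) membrane, and was examined together with 9 partner genes of N-glycosylation and glycoprotein quality control in the mouse retina and retinal pigment epithelium (RPE). The 10 members were *Mlec*, the oligosaccharyltransferase (OST) subunits *Rpn1*, *Rpn2*, *Ddost*, *Dad1*, *Stt3a* and *Stt3b*, and the folding-cycle genes *Canx*, *Calr* and *Ganab*, out of 37725 genes in the count matrix. *Mlec* was included because it had differed between the groups in the RPE cells of these same mice, so its values in that comparison are given as a description with no test. The 9 partners were taken by function.

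Single-cell RNA-sequencing (Parse split-pool barcoding of fixed cells, where each molecule is counted once through a unique molecular identifier, UMI) covered 31089 cells from 9 mice. All 9 mice carried RPE65-ERT2-Cre.miR-211fl.miR-204fl, that is, floxed miR-204 and miR-211 and a tamoxifen-inducible Cre recombinase driven in the RPE. The 4 control mice (S01 to S04) received corn oil and the 5 double knockout (dKO) mice (S05 to S09) received tamoxifen at 75 mg/kg, both on 5 days from postnatal day 28, and retinas were taken 6 months after induction. All were homozygous for the methionine variant of *Rpe65*. The retinas of a mouse were combined into 1 sample, so each mouse counts once. The methods text describes dissociation of retinal cells and does not say how RPE cells were kept.

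N-linked glycans are assembled on a lipid carrier and transferred as a block to nascent proteins by OST. Glucosidases then remove the glucoses one by one, and lectins that read the remaining glucoses hold the glycoprotein in the ER until it is folded. Malectin binds the form that still has a pair of glucoses and is known to associate with ribophorin I, the product of *Rpn1*. The RPE, which takes up shed photoreceptor membrane and recycles visual pigment, is known to express miR-204 and miR-211 strongly.

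The sequences below are shown because both deleted microRNAs read the same seed, and because *Mlec* and some of its partners carry matches to it. Mature sequences are from RefSeq, with bases 2 to 8 (the seed) in capitals.
miR-204-5p: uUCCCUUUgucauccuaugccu
miR-211-5p: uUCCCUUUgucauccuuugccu
The pair differed at 1 position, A17U, counted from the 5′ end of miR-204-5p, and the seeds were identical. The target match searched in annotated 3′-UTRs was AAAGGGA (7mer-m8) or, with a further A, AAAGGGAA (8mer), on the transcript strand only, and an 8mer contains the 7mer-m8. The longest *Mlec* 3′-UTR (5166 bases, transcript Mlec-206) held 2 matches, shown in capitals within 30 bases of the transcript strand.
Mlec 8mer: aataaaaactaAAAGGGAAgaggaagcaga
Mlec 7mer-m8: cagctgcaataAAAGGGAttttctatgtca
The 8mer lies at chr5:115283735-115283742 and the 7mer-m8 at chr5:115284466-115284472, both on the minus strand of GRCm39, within the 3′-UTR of *Mlec* (chr5:115281039-115296551). Of the 9 partners, *Dad1* and *Calr* held 1 7mer-m8 each to the 5p seed and the other 7 held none.
Dad1 7mer-m8: agaaaggatgaAAAGGGAgatggcgcacca
Calr 7mer-m8: agataatagtcAAAGGGActgactgagctc
These matches lie at chr14:54477588-54477594 and chr8:85568366-85568372, both on the minus strand. A 7mer-m8 or 8mer occurred in the 3′-UTRs of 21.28% of 20955 annotated genes, and an 8mer in 9.387%. The 3p arms of the deleted microRNAs were searched in the same way. The miR-211-3p match (GTCCTTG) was found in *Rpn2*, *Stt3b* (an 8mer) and *Calr*, and in 16.91% of all genes. The miR-204-3p match (TTCCCAG) was found in *Mlec*, *Rpn2*, *Ddost*, *Dad1* (an 8mer) and *Canx*, and in 28.5% of all genes. The miR-211-3p match of *Calr* lay in a shorter 3′-UTR of 200 bases (transcript Calr-211). Over both arms, *Rpn1*, *Stt3a* and *Ganab* were the members with no match. For the 5p seed, *Mlec* was the only member with 2 matches and the only one with an 8mer. It also had the longest 3′-UTR, at 5166 bases against 1093 (*Ganab*) to 3597 (*Stt3a*) in the partners. The shares over all genes were not matched for 3′-UTR length. Whether any match acts on its gene was not tested.

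Cells were assigned to types by their UMIs on fixed marker genes, none of which is a member. The gate found 339 RPE-like, 15854 rod-like and 2161 Müller glia-like cells, besides 10 further types, and left 3502 cells without a type. *Rgr*, *Rpe65* and *Lrat* were among the 10 genes that led the RPE-like cells, but they belong to the 5 markers that defined this gate. The remaining RPE markers, *Rrh* and *Best1*, did not peak there. With UMIs scaled to one common library total (CPM), *Rrh* was at 282 in RPE-like and 313.8 in Müller glia-like cells, and at most 11.55 (cone-like) elsewhere. *Best1* was scarce in every type, at 0.177 in RPE-like cells and at most 1.569 (fibroblast-like). Types are called below by name alone, as labels of this gate. RPE cells came from 7 mice with at least 10 such cells, S01, S02 and S03 against S06, S07, S08 and S09, while S04 had 0 and S05 had 3.

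Total depth ranged from 15079143 to 66528160 UMIs per mouse. No full cell name and no 3-round barcode occurred in 2 or more mice (0 and 0), though 5920 cells shared their 3-round barcode with a cell of another sublibrary of the same mouse. Mouse S07 stood apart in RPE, with 15 cells and 44173 UMIs against 951136 to 2750968 in the other 6 mice, and with 0.122% of RPE UMIs on rod markers against 0.0202% to 0.0297%. *Xist* without Y-linked UMIs was found in 60.0% of its RPE cells but in 2.381% of its Müller glia, whereas S06, which bears the same animal number in the labels, had 92.51% in Müller glia. Müller glia of S04, S05 and S07 carried Y-linked UMIs in 94.05% to 100% of cells, and results are therefore also given without these 3 mice.

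In RPE, *Mlec* stood above the control range in dKO mice S08 and S09 and, on 4 UMIs only, in S07. None of its 9 partners passed the test when all RPE UMIs were summed. In control RPE, *Mlec* had 33.4, 31.9 and 39.8 CPM (UMIs of a gene scaled to one common library total) in S01, S02 and S03, and in dKO RPE it had 36.2, 90.6, 91.6 and 102 in S06, S07, S08 and S09. S06 lay within the control range, so the groups overlapped, and the other 3 dKO mice lay above it. The UMIs behind these values were 92, 32 and 93 in control and 95, 4, 145 and 97 in dKO mice. The value of S07 rests on 4 UMIs, so its place against the controls is uncertain. The means were 35.04 ± 4.16 (SD, n = 3) and 80.1 ± 29.7 CPM (SD, n = 4), and the log2 fold change of *Mlec* was 1.09 (edgeR). Without S04, S05 and S07 it was 1.09.

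*Rpn1*, the ribophorin that malectin associates with, had 48.7, 26.9 and 38.5 CPM in control and 42.3, 90.6, 39.2 and 59.9 in dKO RPE. Its highest value was again that of the shallow S07, and the groups overlapped. The log2 fold change of *Rpn1* was 0.28 (95% interval -0.27 to 0.82). *Rpn2*, the second ribophorin, had 35.6, 41.9 and 40.6 CPM in control and 31.7, 22.6, 25.3 and 36.8 in dKO RPE, a log2 fold change of -0.36 (95% interval -0.84 to 0.12). *Rpn2* was thus the partner with the lowest fold change, opposite in sign to *Mlec*, with 1 dKO mouse inside the control range. Its lowest value, that of S07, rests on 1 UMI.

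The catalytic subunits *Stt3a*, which serves cotranslational glycosylation, and *Stt3b*, which also acts after translation, had log2 fold changes of -0.08 (-0.57 to 0.41) and 0.14 (-0.23 to 0.51). *Stt3b* averaged 122 ± 10.2 CPM in 3 control mice and 155 ± 48.5 in 4 dKO mice (mean ± SD), and *Stt3a* 64.1 ± 10.5 and 76.5 ± 41.3. Both dKO means lean on S07, which was highest at 226 and 136 CPM on 10 and 6 UMIs. For *Ddost*, a shared OST subunit, the log2 fold change was 0.23 (-0.47 to 0.93), at a control level of 13.5 ± 1.52 CPM (SD, n = 3). *Dad1*, a small OST subunit, was at -0.16 (-0.84 to 0.52), and 0 UMIs were found in S07, whose depth allows up to 67.9 CPM. Exons of *Ddost* share 1514 bases with *Pink1* on the opposite strand, and those of *Rpn2* share 242 with *Mroh8*, and whether the counting used strand is not given in the sources used here.

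Calnexin (*Canx*) and calreticulin (*Calr*), the membrane-bound and the soluble lectin for glycans with a single glucose, had log2 fold changes of -0.05 (-0.42 to 0.32) and -0.10 (-0.59 to 0.38). The mean of *Canx* was 289 ± 37.6 CPM over 3 control mice and 289 ± 22.1 over 4 dKO mice (SD). *Ganab*, the catalytic subunit of glucosidase II, which makes the glycan form those lectins bind, was at -0.07 (-0.54 to 0.39).

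**Figure D1:**
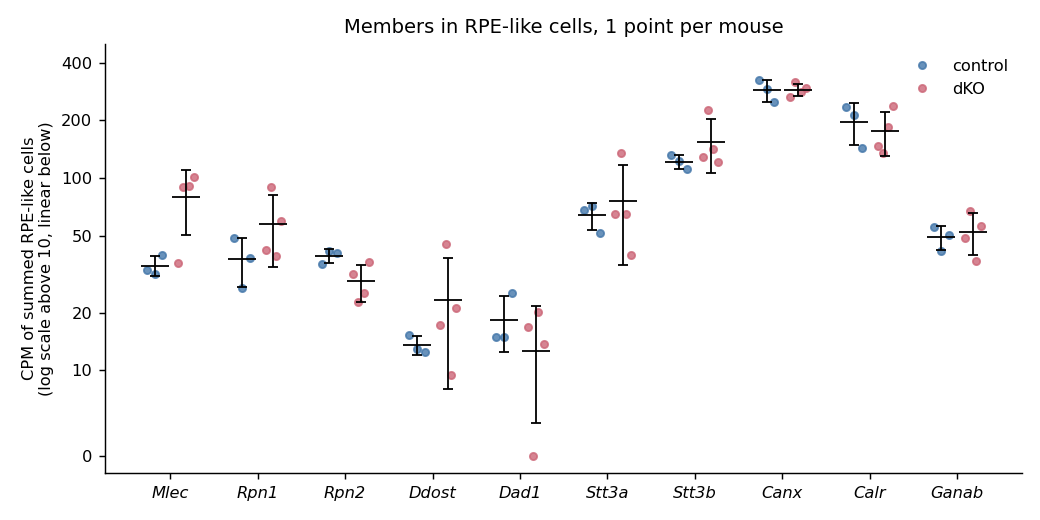
CPM of the 10 members in the summed RPE-like cells of each mouse (vertical axis, logarithmic above 10 and linear below), with control mice in blue, dKO mice in red and the mean ± SD in black. *Mlec* lies above the controls in S08, S09 and, on 4 UMIs only, S07, with S06 at 36.2 CPM among the controls. The partners overlap between the groups.

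Of the 9 partners, 0 passed an adjusted p of 0.05 in RPE (edgeR quasi-likelihood test with Benjamini-Hochberg adjustment over 9712 genes, lowest adjusted p = 0.9996), and 0 had an unadjusted p below 0.05. No gene at all was called in RPE (0.0% of genes), and 5.2% had an unadjusted p below 0.05, so at this depth the test called nothing. The median log2 fold change of the partners was -0.07 against -0.02 over all genes tested. The 95% intervals of all 9 partners lay below the *Mlec* estimate of 1.09, the highest upper bound being 0.93 for *Ddost*. This sets partner intervals beside 1 estimate that has its own error and was chosen for its size, and the difference between *Mlec* and its partners was not tested. A higher log2 fold change than that of *Mlec* was found for 97 of 9712 genes. In such sums, more *Mlec* per cell and a larger share of *Mlec*-rich cells cannot be told apart.

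**Figure D2:**
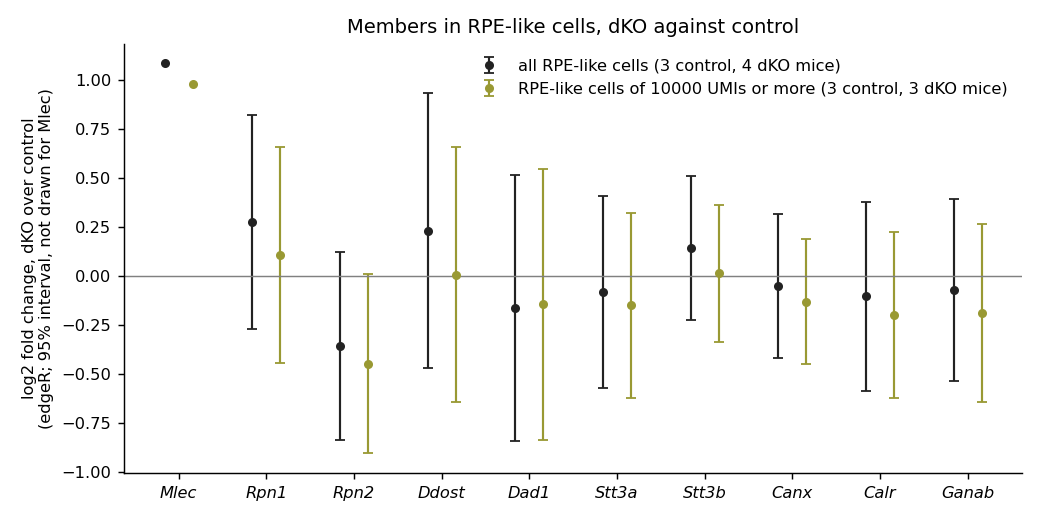
Log2 fold change of each member between dKO and control RPE (edgeR, bars are 95% intervals, not drawn for *Mlec*, which was chosen on this contrast), for all RPE-like cells in black and for those with 10000 UMIs or more in olive. *Mlec* lies at 1.09 and 0.98, and every partner interval in black includes 0.

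The partners' values depended on which RPE cells carried the weight. RPE cells spanned a wide range of depth, and the 197 cells of 10000 UMIs or more held 95.5% of all RPE UMIs. In these deep cells (3 control and 3 dKO mice, since S07 had only 1 such cell) *Mlec* had a log2 fold change of 0.98, and the 9 partners lay between -0.45 (*Rpn2*) and 0.11 (*Rpn1*). In the cells under 10000 UMIs (53 from 3 control and 86 from 4 dKO mice), only *Stt3b*, *Canx* and *Calr* passed the filter on low counts, with log2 fold changes of 1.55, 1.19 and 1.29 (edgeR adjusted p = 0.54, 0.54 and 0.604). Summed over mice, the shallow cells held 6 *Mlec* UMIs in control and 36 in dKO RPE, of which 26 came from S09, and 7 and 28 of *Rpn1*. The shallow cells held 228879 UMIs in control and 268528 in dKO mice, and the pooled level of *Dad1* was 17.5 and 18.6 CPM (4 and 5 UMIs). The other partners below the filter had higher pooled levels in dKO mice. In control and dKO mice *Rpn1* had 30.6 and 104 CPM, *Ddost* 8.74 and 41.0, and *Stt3a* 39.3 and 67.0. *Ganab* had 48.1 and 93.1, and *Rpn2* 52.4 and 67.0. Of the 28 *Rpn1* UMIs in dKO mice, 21 came from S09. None of the 3 partners tested there passed the adjusted threshold, and the other 6 could not be tested.

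The same dependence was seen when the 5% of cells with the most UMIs of each mouse were left out, which kept 28.3% of RPE UMIs. *Mlec* was then at 1.38, *Rpn1* at 1.06, *Stt3b* at 0.69, *Calr* at 0.63 and *Canx* at 0.52, while *Dad1* was at -0.68, and *Ddost* could not be fitted. Of the 8 partners that could be tested this way, 2 had an unadjusted p below 0.05 and none was called (lowest edgeR adjusted p = 0.991). With every RPE cell given equal weight, the log2 ratio of the group means was 1.80 for *Mlec*, 1.53 for *Rpn1*, 1.25 for *Ddost* and 0.89 for *Stt3b*, and *Canx*, *Calr*, *Ganab* and *Stt3a* lay between 0.33 and 0.52, while *Rpn2* was at -0.03 and *Dad1* at -0.46. These values leaned on S09, without which *Mlec* was at 1.21, *Rpn1* at 0.93, *Ddost* at 0.84, *Calr* at -0.14 and *Ganab* at -0.037. How far *Mlec* stood apart from *Rpn1* therefore depended on the weight of the deep RPE cells. RPE cells of S09 and S07 had median depths of 2720 and 2044 UMIs, and a single cell held 30.8% and 27.8% of their RPE UMIs. The part of depth in these differences was not tested.

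A ratio within the same cells does not depend on the scaling between libraries. Per 100 UMIs of the 6 OST subunits, *Mlec* had 10.6, 11.0 and 14.2 UMIs in control RPE and 12.0, 17.4, 30.5 and 34.8 in dKO RPE (S06, S07, S08 and S09). The means were 11.9 ± 1.96 (SD, n = 3) and 23.7 ± 10.7 (SD, n = 4), a ratio of 1.98, with S06 inside the control range. In the deep cells *Mlec* had 10.8, 10.2 and 14.3 per 100 OST UMIs in control mice S01, S02 and S03. The dKO mice S06, S08 and S09 had 12.2, 30.9 and 35.3 there. Pooled over mice, the ratio in the deep cells was 12.0 in control (211 *Mlec* UMIs) and 21.3 in dKO RPE (304 UMIs). In the shallow cells the pooled ratio was 11.3 in control (6 UMIs) and 25.9 in dKO RPE (36 UMIs). Without S09 the dKO ratio of the shallow cells was 16.4 (10 UMIs), and without S02 their control ratio was 3.70 (1 UMI). In the deep cells S06, at 12.2, lay within the control range of 10.2 to 14.3, and the dKO ratio was 32.2 without S06. Pooled ratios do not show the spread between mice, and no interval is given because *Mlec* was chosen on this contrast. Within the shallow cells S01 and S06 had 0 *Mlec* UMIs beside 15 and 14 OST UMIs.

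**Figure D3:**
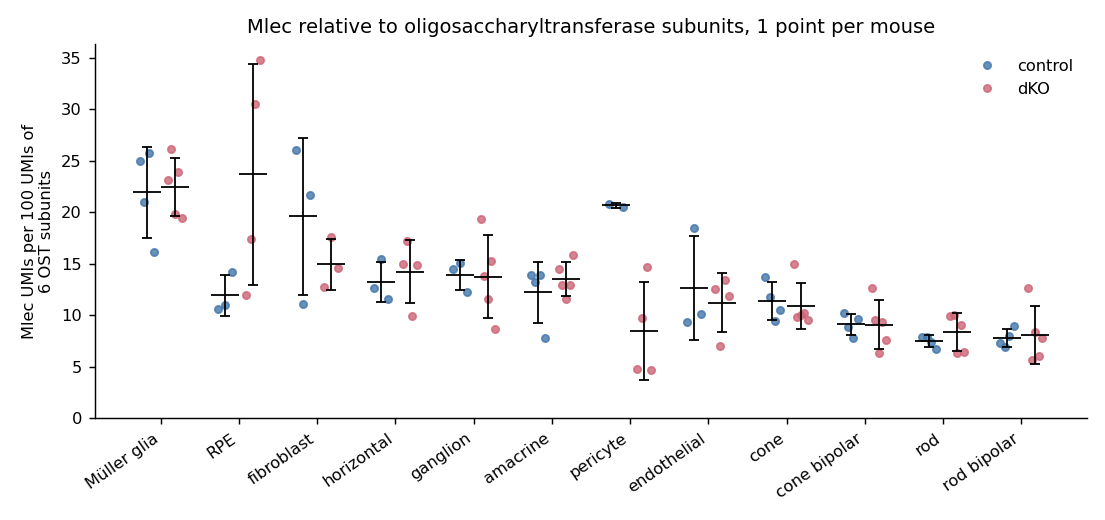
*Mlec* UMIs per 100 UMIs of the 6 OST subunits in each cell type and mouse (vertical axis from 0), with control mice in blue, dKO mice in red and the mean ± SD in black, and types ordered by their mean. RPE has means of 11.9 in control and 23.7 in dKO mice, while in Müller glia the groups overlap at 21.9 and 22.5.

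The same contrast outside RPE asked whether cells in which Cre is not directed show it. In rods, *Mlec* had 17.5, 18.4 and 18.8 CPM as the lowest, median and highest of 4 control mice and 14.4, 19.8 and 26.1 of 5 dKO mice. The log2 fold change there was 0.09 (95% interval -0.24 to 0.42). In Müller glia it had 50.7, 73.3 and 83.8 CPM in control and 60.0, 72.8 and 84.1 in dKO mice, which gave -0.02 (-0.35 to 0.31). The groups overlapped in both types. No member was called in rods or Müller glia (edgeR adjusted p from 0.9991 upward in all types outside RPE), where 0.0% of genes were called in each, 3.56% of rod genes and 1.89% of Müller glia genes had an unadjusted p below 0.05, and the median partner was at -0.08 and -0.09 on the log2 scale.

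Over all 10 types compared beside RPE, the log2 fold change of *Mlec* lay between -0.31 (fibroblasts) and 0.21 (horizontal cells). The 95% interval of *Mlec* lay below 1.09 in all 10 types, with a highest upper bound of 0.83, in horizontal cells. The OST ratio of dKO to control mice was 1.12 in rods and 1.02 in Müller glia, and its lowest value was 0.41 in pericytes, where only 2 control mice and 33 *Mlec* UMIs in all were available. The difference between RPE and another type was not tested, since *Mlec* was chosen on the RPE contrast.

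Among the 98 tests of members outside RPE, 0 passed the adjusted threshold and 5 had an unadjusted p below 0.05. *Stt3a* in cones had 39.4, 45.0 and 48.9 CPM (lowest, median, highest of 4 control mice) and 30.8, 33.9 and 35.5 in 5 dKO mice, so the groups did not overlap. The log2 fold change of *Stt3a* there was -0.41 (standard error 0.12, edgeR unadjusted p = 0.00397, adjusted p = 0.9999), in a comparison where 2.11% of genes had an unadjusted p below 0.05 and 0.432% of genes had every dKO mouse below every control mouse. *Ganab* was at -0.22 in cones and at -0.31 in Müller glia, where its mean was 46.8 ± 8.27 CPM in 4 control and 39.1 ± 4.02 in 5 dKO samples of Müller glia (SD). *Dad1* was at 0.82 in rod bipolar cells, where its level was low (4.15 ± 2.78 CPM in 4 control mice and 10.3 ± 2.13 in 5 dKO mice, mean ± SD). With a lowest control value of 0 taken as 0 CPM, the groups did not overlap, as for 0.396% of genes with dKO higher. Since a count of 0 allows up to 3 counts, this separation is uncertain. An unadjusted p below 0.05 was found for 1.54% of genes. *Rpn2* was at 0.52 in horizontal cells (34.1 ± 5.16 and 50.2 ± 6.49 CPM, SD, n = 3 and 4), again without overlap, where 1.62% of genes had all dKO mice higher and 3.44% an unadjusted p below 0.05. In the other types that share was 3.33% (cone bipolar), 1.86% (amacrine), 3.52% (ganglion), 3.08% (endothelial) and 4.18% (fibroblast), and 1 gene passed the adjusted threshold, in ganglion cells (0.00819%).

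Across the 12 cell types tested, mean *Mlec* was highest in Müller glia and lowest in rods and cone bipolar cells. RPE came next after Müller glia only with the dKO mice included, and *Mlec* had been chosen for its difference in those mice. The mean over mice was 71.4 ± 11.1 CPM (SD, n = 9) in Müller glia, 60.8 ± 32.0 (SD, n = 7) in RPE, 39.2 ± 9.88 (SD, n = 6) in fibroblasts, 34.0 ± 10.3 (SD, n = 7) in endothelial cells, 32.7 ± 5.33 (SD, n = 9) in cones and 31.4 ± 14.7 (SD, n = 6) in pericytes. It was 29.6 ± 6.96 (SD, n = 8) in ganglion cells, 26.9 ± 4.79 (SD, n = 9) in amacrine cells, 25.6 ± 6.49 (SD, n = 9) in rod bipolar cells, 22.9 ± 6.10 (SD, n = 7) in horizontal cells, 19.3 ± 3.37 (SD, n = 9) in rods and 18.7 ± 3.46 (SD, n = 9) in cone bipolar cells. No neighbouring pair in this order passed (11 pairs, exact two-sided permutation tests within mice, adjusted p = 0.8125 for each). The smallest p these permutation tests can give was 0.03125 with 6 mice and 0.007812 with 8. A lone pair compared in 6, 7 or 8 mice therefore could not pass after adjustment, and no equality of neighbours follows. The pair of Müller glia and RPE included dKO mice, and in control mice their means were 70.3 and 35.04 CPM. Microglia had 96.3 ± 30.7 CPM (SD, n = 4), but on 36 UMIs from 56 cells, and were not tested.

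**Figure D4:**
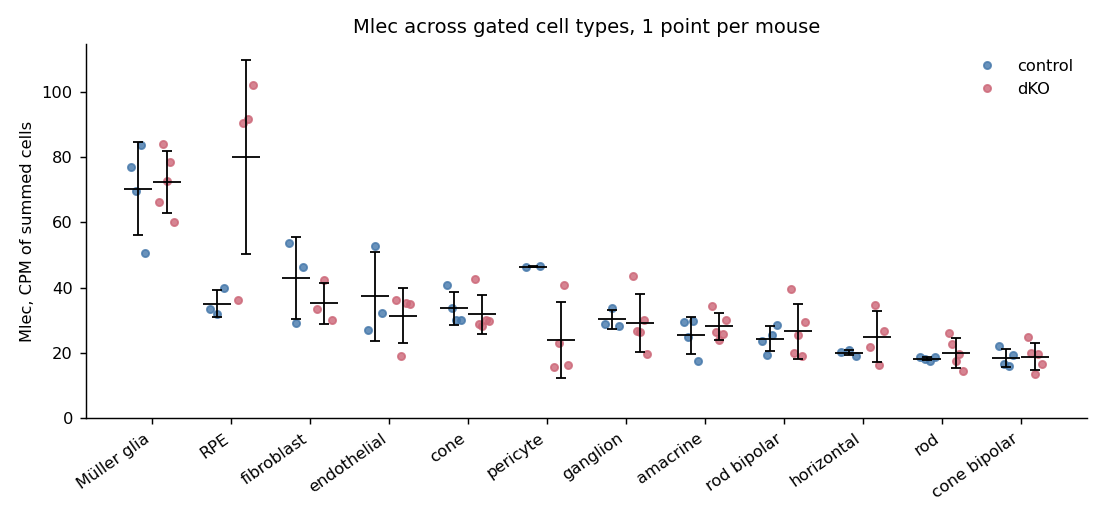
*Mlec* in CPM of the summed cells of each type and mouse (vertical axis from 0), with control mice in blue, dKO mice in red and the mean ± SD in black, and types ordered by their mean. Müller glia lie at 71.4 CPM on average and rods at 19.3, and RPE has a mean of 35.04 in control and 80.1 in dKO mice.

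Against the mean of the other 11 types, *Mlec* was higher in Müller glia by a log2 fold change of 1.35 (edgeR adjusted p = 4.07e-24) and in RPE by 1.06 (adjusted p = 2.58e-12), and lower in cone bipolar cells (-0.79) and rods (-0.75). The RPE value and its p held the dKO mice, for whose difference *Mlec* was chosen, so neither is independent of that choice. In control mice alone *Mlec* in RPE was at 0.51 against the other types (edgeR adjusted p = 0.00372), with 35.04 CPM, below the control means of fibroblasts (43.1), pericytes (46.4, 2 mice) and endothelial cells (37.4), while Müller glia were at 1.37. Counted per cell over all mice and not as CPM, *Mlec* was highest in the large ganglion cells (1.61 UMIs per cell). RPE (1.53, dKO mice included) and Müller glia (1.09) followed, and rods were lowest (0.112).

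In RPE most of the group was high. There 9 of 10 members were higher than the mean of the other types (edgeR adjusted p below 0.05), where 30.8% of all genes were higher and 30.8% lower. *Calr* was at 1.31, *Rpn1* at 1.09, *Canx* at 0.90, *Ddost* at 0.81, *Stt3a* at 0.75, *Stt3b* at 0.57, *Dad1* at 0.37 and *Ganab* at 0.26 on the log2 scale. *Rpn2*, at -0.16 (adjusted p = 0.173), did not pass the test. In control mice alone 8 of 10 were higher, with *Calr* at 1.498 and *Rpn1* at 1.14 and without *Dad1* (adjusted p = 0.0565), and with library size in place of TMM 7 of 10 were.

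**Figure D5:**
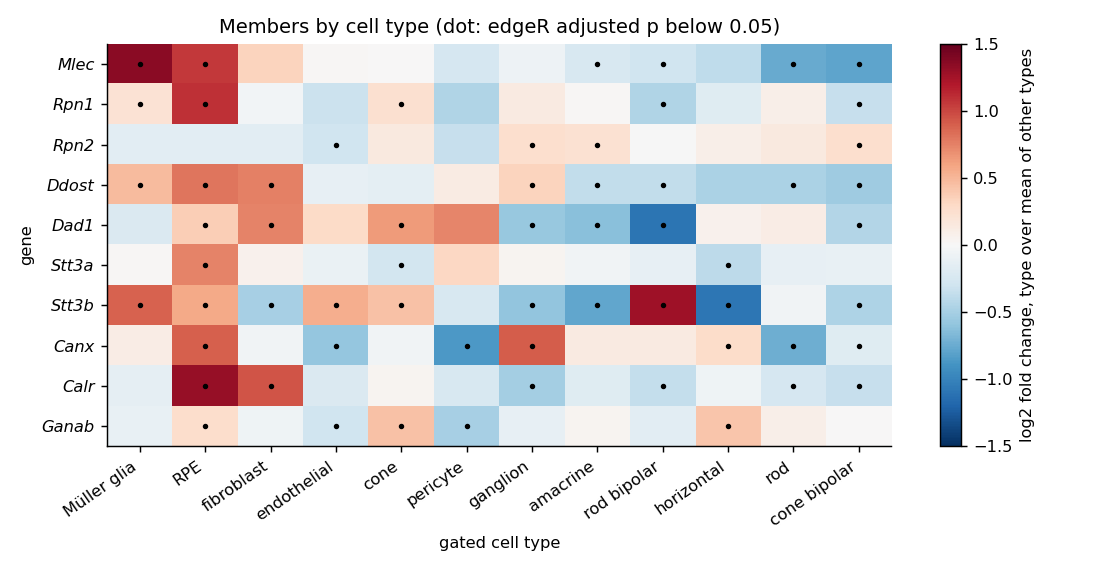
Log2 fold change of each member (rows) in each cell type (columns, ordered by *Mlec*) against the mean of the other types, red for higher and blue for lower, with a dot where the edgeR adjusted p was below 0.05. RPE has dots for 9 of 10 members, whereas Müller glia have them for 4, and *Stt3b* peaks in rod bipolar cells.

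In Müller glia fewer members were high than in RPE, at a share near that of all genes. There 4 of 10 members were higher (35.6% of genes were) and 0 lower (28.6% of genes), namely *Mlec*, *Stt3b* at 0.88, *Ddost* at 0.47 and *Rpn1* at 0.22. *Stt3b* varied most among the members, by a ratio of 4.46 between its highest and lowest types, from 207 ± 25.9 CPM (SD, n = 9) in rod bipolar cells, where it was at 1.27 against the other types (edgeR adjusted p = 3.5e-32), to 46.5 ± 8.89 (SD, n = 7) in horizontal cells, where it was at -1.09. Its paralog *Stt3a* spanned only 71.2 to 32.0 CPM, from RPE to horizontal cells. *Canx* was highest in ganglion cells (317 CPM, 0.91 against the other types) and *Calr* in RPE (185 CPM) and fibroblasts (0.95). *Rpn2* changed least, by a ratio of 1.59 between its highest and lowest types. In cone bipolar cells 7 of 10 members were lower (23.4% of genes were), and in rods 4 were (32.6% of genes).

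Per kilobase of exon, the RPE levels ran from *Calr* at 48.6 and *Canx* at 38.0 CPM per kb, through *Stt3b* at 14.0, *Rpn1* at 10.4, *Mlec* at 8.73, *Ganab* at 8.57 and *Stt3a* at 7.59, to *Ddost* at 5.78, *Rpn2* at 4.46 and *Dad1* at 3.26. *Mlec* was thus at a level like those of the OST subunits and below both folding lectins. These means mix control and dKO mice, and *Mlec* had 35.04 CPM in control and 80.1 in dKO RPE. Its place among the OST subunits therefore depends on that mix. This order depends on the length used, because reads from introns may be counted, and per kilobase of the whole gene *Mlec* (3.92) stood above *Stt3b* (1.95) and *Rpn1* (2.37).

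Over the 12 types, the pattern of *Mlec* was most like those of *Arhgef16* (Pearson r = 0.928), *Duxbl1* (0.920), *Igf2* (0.898), *Tmem167b* (0.896) and *Ildr2* (0.893) among 13489 genes. Of its partners, *Ddost* was the most alike (0.774), then *Stt3a* (0.595) and *Rpn1* (0.587), and *Rpn2* was the least alike (-0.670). The median over the partners was 0.497, against -0.029 over all genes. These values describe 12 type means that come from the same libraries, in which RPE means mix control and dKO mice, and they carry no test.

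The wider pathway was taken from 6 lists with 59 further genes, of which 48 could be tested in RPE. None passed the adjusted threshold, 1 had an unadjusted p below 0.05 with a higher and 2 with a lower level in dKO RPE (3.11% and 2.09% of all genes), and the median log2 fold change was -0.04. Among the lectin cargo receptors (3 of 3 tested), *Lman1*, a mannose lectin that carries glycoproteins out of the ER, had 113, 135 and 112 CPM in control and 158, 113, 160 and 253 in dKO RPE, a log2 fold change of 0.61 (edgeR adjusted p = 0.821). S07 lay within the control range and the other 3 dKO mice above it. *Mcfd2*, its cofactor, was at -0.40.

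In the ER stress list, 2 of 11 tested genes were positive and the median was -0.27. *Herpud1*, an unfolded-protein-response gene, had 42.2, 37.9 and 25.2 CPM in control and 19.5, 0, 13.3 and 18.9 in dKO RPE. Its log2 fold change was -1.05 (edgeR adjusted p = 0.576). S06, S08 and S09 lay below the controls, while the 0 UMIs of S07 allow up to 67.9 CPM, above every control, so S07 cannot be placed. No test was passed, and with counts of 0 taken as 0 CPM, 4.01% of all genes had every dKO mouse below every control mouse. *Dnajb9*, named after its values were seen, was at -0.49 (adjusted p = 0.885), and *Hspa5*, which encodes the ER chaperone BiP, was at 0.03. *Xbp1*, a transcription factor of that response, was at 0.12.

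The remaining lists held no gene with an unadjusted p below 0.05. Of the other OST subunits 3 of 6 were tested, with *Tusc3* at 0.24 and *Magt1* at -0.43, the alternative oxidoreductase subunits of the STT3B complex. Of the genes that build the lipid-linked oligosaccharide 16 of 21 were tested, with *Alg10b* at 0.52 and *Dpm1* at -0.46 and a median of -0.02. In the glucose trimming and folding cycle (4 of 5 tested) *Prkcsh*, the partner subunit of *Ganab*, was at 0.47 and *Uggt1*, which adds glucose back to misfolded glycoproteins, at -0.08. In the mannose trimming and ER-associated degradation list (11 of 12 tested) *Sel1l* was at 0.23 and *Vcp* at -0.28, around a median of 0.02.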

How the data were processed

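The deposited matrix holds raw UMI counts. According to the methods text and labels, the authors mapped reads to GRCm39 with split-pipe, dropped cells with few genes and rare genes, and worked in R 4.2.2 with Seurat 4.3.0. The deposited counts precede normalization. Doublet handling is not given in the sources used here, and no doublet caller was run. Free RNA was not removed.

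The members, gene lists and markers were chosen with earlier results of these data known, and the gate's thresholds after seeing marker distributions. A cell was given a type when its marker share, per 10000 UMIs and divided by the 0.75 quantile among cells with at least 3 markers, was at least 0.2 and 1.5 times the next type, with at least 2 markers detected (stricter gate, 3 times). UMIs were summed per mouse and type (at least 10 cells) and compared with edgeR 4.0.16 (quasi-likelihood, TMM, filterByExpr, R 4.3.3), adjusted over all genes tested. Types were compared with mouse as a covariate. Tests were checked on simulated data. Alternatives were DESeq2 1.42.0, library size, no filter, mice left out, S06 and S07 summed, a stricter gate and the 5% of cells with the most UMIs left out. Values of 0 counts allow up to 3 counts. Sites and gene models come from GENCODE M39 on GRCm39, a later annotation of the authors' genome (35478 of 37725 names matched). The rule for named genes took the 10 members, the 5 genes most like *Mlec*, and from each list the genes past the threshold, otherwise the lowest unadjusted p in each direction in RPE. The labels do not say that mice came from separate litters or runs, and p-values measure the spread between these mice.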

Additional observations from a re-analysis of the deposited data

Results flagged for a closer look

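In 79 groups of 4 or more mice, 8 values stood far from the rest of their group, where chance gives about 1 in 20. All 8 belong to mice S04, S05 and S07. In rods, *Calr* had 141.6 CPM in control mouse S04 against 56.3 to 69.4 in the other control mice, and *Stt3b* had 106 in dKO mouse S07 against 91.5 to 93.6. In Müller glia, *Dad1* had 2.67 CPM in S04 against 14.4 to 16.6, and *Rpn1* had 38.7 in S07 against 23.9 to 27.5. Müller glia of S04 held 374554 UMIs of all genes, so its *Dad1* value rests on very few counts. *Mlec* had 42.5 CPM in the cones of dKO mouse S05 against 28.2 to 29.95, and 19.0 in the endothelial cells of S07 against 35.1 to 36.3. Per 100 OST UMIs, *Mlec* stood at 7.78 in the amacrine cells of S04 against 13.3 to 13.9, and at 14.9 in the cones of S05 against 9.57 to 10.2. These are the 3 mice in which most Müller glia carried Y-linked UMIs, and S04 and S05 had 27 and 40 Müller glia. The part of sex or depth in these values was not tested.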

How the results depend on the processing

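No paired analysis was possible because mouse numbers run on from control to dKO and none is shared. Under every alternative run, 0 of the 9 partners in RPE and 0 members in the other types were called between groups, and the dKO to control ratio of *Mlec* per OST UMI in RPE stayed between 1.67 and 2.31. Members higher in RPE than in other types numbered 7 to 10 of 10. With the filter on low counts dropped, edgeR called 52 genes higher and 17 lower in RPE, against 0 in the main test. In RPE *Rpn1*, *Rpn2*, *Ddost* and *Stt3b* kept their sign under every alternative fit, and *Dad1*, *Stt3a*, *Canx*, *Calr* and *Ganab* did not. With the 5% of cells with the most UMIs left out, *Canx* was at 0.52, *Calr* at 0.63 and *Ganab* at 0.045; in cells under 10000 UMIs *Canx* and *Calr* were at 1.19 and 1.29; with equal weight per cell *Stt3a*, *Canx*, *Calr* and *Ganab* were at 0.33, 0.52, 0.51 and 0.33. Leaving out 1 mouse each, *Dad1* ran from -0.33 to 0.18, *Stt3a* from -0.19 to 0.094, *Canx* from -0.13 to 0.047, *Calr* from -0.30 to 0.053 and *Ganab* from -0.19 to 0.061, and *Mlec* in RPE from 0.85 (without S09) to 1.45 (without S06). Outside RPE *Mlec* kept its sign in cones, horizontal cells and fibroblasts and changed it under some alternative in the other 7 types. In Müller glia it was at 0.0025 with library size, 0.021 with the stricter gate and 0.0064 without the deepest cells, in rod bipolar cells at -0.027 (stricter gate) and -0.049 (S04, S05 and S07 left out), in cone bipolar cells at 0.013 (library size), 0.026 (S06 and S07 summed), 0.0035 (deepest cells out) and 0.0080 (S04, S05 and S07 left out), in amacrine cells at -0.0034 (stricter gate) and -0.035 (S04, S05 and S07 left out), and in ganglion cells at 0.066 (deepest cells out). Leaving out 1 mouse each, *Mlec* ran from -0.0090 to 0.18 in rods, -0.11 to 0.073 in Müller glia, -0.10 to 0.15 in rod bipolar, -0.087 to 0.10 in cone bipolar, -0.017 to 0.12 in amacrine, -0.24 to 0.014 in ganglion and -0.48 to 0.053 in endothelial cells. The cause of these changes was not tested. Under equal weight per cell, *Rpn2*, *Stt3a*, *Calr* and *Ganab* also changed sign when 1 mouse was left out. The alternatives that weight or split cells by depth (with each mouse left out of them), restrict the type comparison to control mice or leave out S04, S05 and S07 were chosen after seeing the data. Few RPE cells and UMIs limit what could be detected.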
